A study of Mus musculus with 6 samples.

Results

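The Schlafen genes of the mouse were followed in bone marrow-derived macrophages (BMDMs) that had been co-cultured with neutrophils from the injured spinal cord. The members, *Slfn1*, *Slfn2*, *Slfn3*, *Slfn4*, *Slfn5*, *Slfn8* and *Slfn9*, were chosen by name, with earlier results of these data known. All 7 were found among the 55335 gene identifiers of the deposited table. RNA was sequenced from 6 libraries. In 3 of them (WT) the BMDMs had been kept for 24 h with *Cd177* WT neutrophils, and in the other 3 (KO) with *Cd177* KO neutrophils, which lack the surface glycoprotein CD177. In both groups the neutrophils were magnetically isolated from the lesion at 3 dpi (days post-injury), the BMDMs were grown from *Cd177* WT marrow with macrophage colony-stimulating factor, and the macrophages were sorted as Ly6G-negative cells before RNA extraction. The mice of the study were adult males on the C57BL/6 background, as far as its methods state them, and the *Cd177* knockout is a whole-body one. All 6 libraries are from co-cultures, so none gives the level without neutrophils. The sources used here do not say whether the 3 libraries of a group came from separate cultures or animals, so p-values measure the spread between these libraries, which may be technical.

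Schlafen proteins share an amino-terminal core that can cleave transfer RNA in several members, and the long members carry an additional helicase-like part. Many of them are induced by type I interferon, and the family is known for restraint of cell growth in T lymphocytes, for restriction of viral protein synthesis and for changes during myeloid differentiation and macrophage activation. In the mouse, *Slfn1* and *Slfn2* encode the short form, *Slfn3* and *Slfn4* an intermediate form, and *Slfn5*, *Slfn8* and *Slfn9* the long form.

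The 7 genes lie in 1 cluster on chromosome 11, with the pseudogene *Slfn10-ps* among them, between 82951349 and 83215154 (GENCODE M21, GRCm38), a stretch of 264 kb. *Slfn5*, *Slfn2*, *Slfn1*, *Slfn4* and *Slfn3* are on the plus strand, and *Slfn9* and *Slfn8* are on the minus strand. Their longest annotated coding sequences run to 337 codons in *Slfn1* and 378 in *Slfn2*, to 640 in *Slfn3* and 602 in *Slfn4*, and to 884 in *Slfn5* and 910 in both *Slfn8* and *Slfn9*. Coding sequences of *Slfn8* and *Slfn9* were 92.7% identical over 2730 aligned bases, and those of *Slfn3* and *Slfn4* were 92.3% identical over 1785. *Slfn1* and *Slfn2* were 71.3% identical, and *Slfn5* was 63.4% identical to *Slfn8*. How reads that fit more than 1 gene were counted is not given in the sources used here, so the split of reads within the near-identical pairs is uncertain.

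Promoter windows (250 bases before to 50 after each start, RefSeq, GRCm38.p6) were available for all 7 members and are shown here because 1 motif occurred in the long members and another in the short and intermediate ones. The letters TTCNNTTTC, a core of the interferon-stimulated response element to which interferon-activated factors bind, were searched on both strands and occurred in the windows of *Slfn5*, *Slfn8* and *Slfn9*, while 8.56% of all 32851 windows hold them. *Slfn14*, which is not among the members and was near 0 in all libraries, also has a match, on the opposite strand at -197. The window of *Slfn8* at chr11:83020823-83020882 (minus strand) has the letters from base -47 to base -39 before the start, that of *Slfn9* at chr11:82991840-82991899 (minus strand) from -44 to -36, and that of *Slfn5* at chr11:82951945-82952004 (plus strand) from -132 to -124. Counted from another annotated start of *Slfn8*, the same match lies from -135 to -127. Capitals mark the match, each line runs 5′ to 3′ on the gene's strand, and *Slfn5* has a further match on the opposite strand at -155.
Slfn8: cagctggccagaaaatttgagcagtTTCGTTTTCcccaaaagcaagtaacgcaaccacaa
Slfn9: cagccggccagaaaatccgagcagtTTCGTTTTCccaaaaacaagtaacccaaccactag
Slfn5: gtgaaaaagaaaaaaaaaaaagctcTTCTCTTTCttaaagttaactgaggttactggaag

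The windows of the short and intermediate members held no TTCNNTTTC, which says only that these letters are not in them. They shared the letters ACTTCCTG, an ETS-type core with its flank, close to the start. ETS factors include PU.1, the lineage factor of macrophages. This motif was picked after the windows had been read, and 3.33% of all windows hold it on either strand. It lay from base -74 to -67 in *Slfn1* (chr11:83116720-83116779), from -55 to -48 in *Slfn2* (chr11:83065031-83065090), from -73 to -66 in *Slfn4* (chr11:83175087-83175146) and from -42 to -35 in *Slfn3* (chr11:83191262-83191321), all on the plus strand, with a further match on the opposite strand at -60 in *Slfn3*. The letters TTCNNNGAA, the gamma-activated site of interferon responses, which can overlap the first motif at its outer letters, were in none of the members' windows and in 8.30% of all. No measurement of binding belongs to these data, so the matches are a description of sequence.
Slfn1: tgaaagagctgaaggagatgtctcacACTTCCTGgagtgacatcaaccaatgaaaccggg
Slfn2: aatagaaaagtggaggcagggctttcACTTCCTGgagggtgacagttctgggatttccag
Slfn4: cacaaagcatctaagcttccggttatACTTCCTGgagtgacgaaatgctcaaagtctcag
Slfn3: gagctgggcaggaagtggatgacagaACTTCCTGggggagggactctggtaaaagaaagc

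Before the members are described, some facts of the libraries bear on them. Values were FPKM (fragment counts divided by transcript length and by the library's depth, so that levels can be compared between genes), with an implied depth between 17600000 and 20300000 fragments per library. The 13367 genes whose mean over the 6 libraries reached 0.5 FPKM entered the limma test, which used log2(FPKM + 0.5). Changes of genes near or under 0.5 FPKM come out too small on that scale. The first principal component (70.8% of the variance) separated the groups, and on the second (13.5%) replicate 3 of each group stood apart from replicates 1 and 2. All 12 macrophage markers passed the filter, with a summed level of 7270 to 8750 FPKM in WT and 8400 to 9220 FPKM in KO. Most of this sum was *Lyz2*, and single markers went both ways, with *Cd14* (-3.33) and *Fcgr1* (-1.83) lower in KO and *Mrc1* (2.96), *C1qa* (0.76), *Mertk* (0.72) and *Adgre1* (0.30) higher on the log2 scale, the last 2 not passing with median-of-ratios scaling. The 16 neutrophil markers summed to 203 to 262 FPKM in WT and 560 to 574 FPKM in KO, most of it *S100a8* and *S100a9*. Of the 13 that were tested 11 were higher in KO, beside 27.1% of all tested genes, 1 was lower and 1 did not pass. With median-of-ratios scaling 10 were higher, as *S100a8* did not pass (0.47, adjusted p = 0.0806 from limma). The lower one was *Mmp8* (-1.12, adjusted p = 0.000359 from limma), and of those higher *Cxcr2* and *Cd177* passed the filter only through the KO libraries. *Ly6g*, which defines the gate, was listed at 0 in all WT libraries and at 0.403 to 0.66 FPKM in KO. The 9 B lymphocyte markers summed to 1.41 to 2.51 FPKM in WT and 14.9 to 17.1 FPKM in KO, with *Igkc* at 0 in all libraries. The 14 T and NK lymphocyte markers, of which *Cd3d*, *Cd2* and *Gzma* were at 0 in all libraries, summed to 103 to 107 FPKM in WT and 43.0 to 44.9 FPKM in KO, most of it *Il7r* (means of 103 and 37.3 FPKM). *Cd4* went the other way, with means of 1.76 FPKM in WT and 5.56 FPKM in KO. The 8 dendritic cell markers summed to 27.8 to 44.1 FPKM in WT and 52.0 to 65.7 FPKM in KO, most of it *Itgax* (means of 36.3 and 60.5 FPKM). The others were under the filter and went both ways, with *Flt3* at 0. *Clec9a* had means of 0.541 FPKM in WT and 0.0526 FPKM in KO, and *Zbtb46* had means of 0.113 and 0.306 FPKM. Spinal cord markers summed to at most 7.17 FPKM in any library with *Aqp4*, *Mog* and *Snap25* at 0. *Cd177*, the gene knocked out in the neutrophils, was 0.544, 0.309 and 0.521 FPKM in WT and 1.79, 1.84 and 2.28 FPKM in KO, so that it was higher in the libraries labelled KO (log2 fold change 1.37, adjusted p = 0.000827 from limma), although its WT mean of 0.458 FPKM is under the filter, which it passed only through the KO libraries. The sequenced BMDMs were *Cd177* WT in both groups. Whether the *Cd177* reads came from them or from neutrophils left after the sort was not tested, so its level alone cannot check the genotype of the neutrophils. The part of other cells in the Schlafen values was not tested, and in sorted bulk samples fewer cells of a type and less RNA per cell cannot be told apart.

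The family as a whole was lower in the KO libraries. The summed level of the 7 members was 411, 403 and 472 FPKM in WT and 106, 103 and 115 FPKM in KO, so that no KO library came near the lowest WT library. The group means of this sum were 429 ± 38.2 and 108 ± 6.28 FPKM (SD, n = 3 each), a ratio of 3.97. With limma, and p-values adjusted by Benjamini-Hochberg across the whole tested table with a threshold of 0.05, 5 of the 7 members, *Slfn1*, *Slfn2*, *Slfn4*, *Slfn5* and *Slfn8*, were lower in KO and none was higher. Among all tested genes 10.5% were lower and 27.1% were higher at that threshold. As the members were chosen with earlier results of these data known, their count is a description only. The same 5 members also changed by more than 2-fold with an unadjusted p under 0.05, the cut the study itself used, which 4.43% of tested genes met in this direction, and in the same 5 every KO library lay below every WT library, as in 14.4% of tested genes. *Slfn4* passed the filter on low values only through the WT libraries, so that it had to differ to be tested. The other 2 members, *Slfn3* and *Slfn9*, had lower means in KO but overlapping groups. The plot of the levels by library shows all 7 on a log axis.

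**Figure D1:**
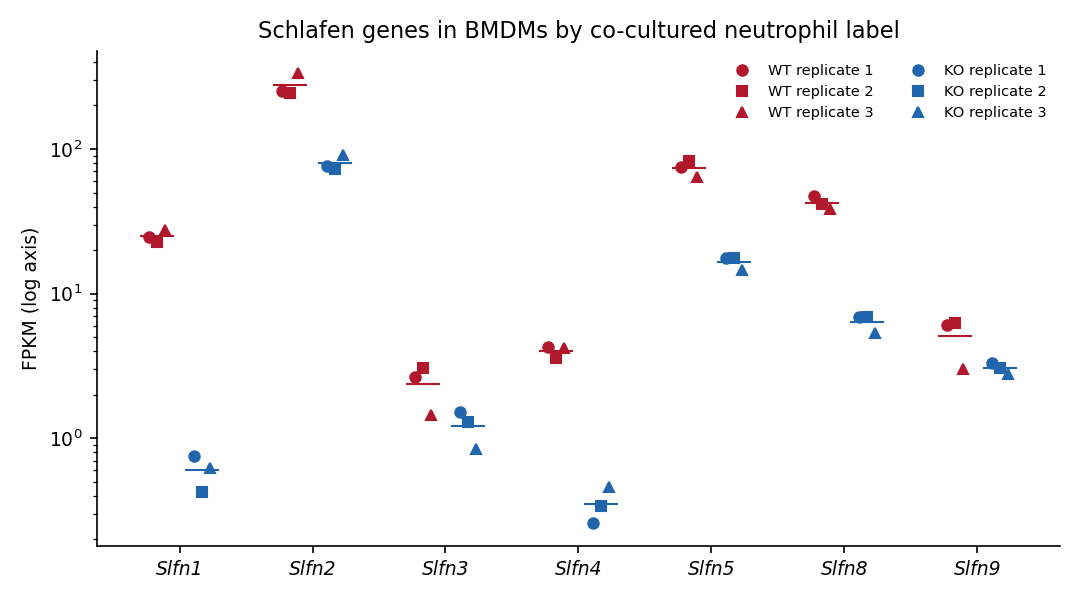
Level of each Schlafen gene in FPKM (log axis) in the 3 WT libraries (red) and the 3 KO libraries (blue), with marker shapes for replicates and a line at each group mean. *Slfn1* drops furthest, from a mean of 24.9 to 0.603 FPKM, and for *Slfn3* and *Slfn9* the triangle of WT replicate 3 sits among the KO points.

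*Slfn1*, a short member first described in T-cell development, had the largest change of the family. It was 24.5, 22.7 and 27.5 FPKM in WT and 0.759, 0.426 and 0.625 FPKM in KO. No KO library reached a level near the lowest WT library, and the ratio of the means was 41.3. The log2 fold change was -4.53 (95% interval from -4.87 to -4.19, adjusted p = 3.51e-06 from limma), which ranked 21 from the lowest among the tested genes. The KO values correspond to about 16 to 25 fragments per library, if the step of the low values is 1 fragment, and the WT values to 768 to 923. The gene has 1 annotated transcript, and 0.606% of its 50-base stretches occur in the transcripts of another gene, the lowest share among the members.

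*Slfn2*, the other short member, which keeps T lymphocytes and monocytes in a resting state, was the most abundant. It was 251, 242 and 334 FPKM in WT and 75.8, 73.3 and 90.5 FPKM in KO, and replicate 3 was the highest of either group. The means were 276 ± 50.4 and 79.9 ± 9.29 FPKM (SD, n = 3 each). The log2 fold change was -1.77 (95% interval from -2.13 to -1.42, adjusted p = 0.000217 from limma). It made up 60.2% to 70.6% of the family's summed FPKM in WT and 71.2% to 78.6% in KO, ranges that nearly touched. It was thus the member that carried most Schlafen RNA per length under both conditions, although it fell less than the other members that passed.

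The intermediate members went apart. *Slfn4*, known from myeloid cells, where its level follows activation and differentiation, was 4.25, 3.61 and 4.21 FPKM in WT and 0.259, 0.34 and 0.458 FPKM in KO. The ratio of its means was 11.4, above the 6.65 of *Slfn8*, whose log2 fold change was nevertheless the larger. The KO mean of *Slfn4*, 0.352 FPKM, is under the added 0.5, so its log2 fold change comes out too small. That log2 fold change was -2.41 (95% interval from -2.74 to -2.09, adjusted p = 3.67e-05 from limma). The KO level of *Slfn4*, about 18 to 33 fragments, was the lowest mean of the family, with a range that overlapped that of *Slfn1*. *Slfn3*, its near-identical neighbour, which is linked to T-cell activation and gut epithelium, was 2.66, 3.06 and 1.44 FPKM in WT and 1.51, 1.30 and 0.837 FPKM in KO. WT replicate 3 lay below KO replicate 1, so the groups overlapped, and the log2 fold change of -0.72 (95% interval from -1.35 to -0.09) did not pass (adjusted p = 0.0729 from limma). Without WT replicate 3 the adjusted p-value from limma was 0.0105, and with median-of-ratios scaling it was 0.0355. Of the 50-base stretches of *Slfn3*, 16.0% also occur in another gene, and of *Slfn4* 11.3%. The stretches that the pair has in common are 7.39% of all those of *Slfn3* and 6.28% of those of *Slfn4*.

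Among the long members, *Slfn5* and *Slfn8* fell and *Slfn9* did not pass. *Slfn5*, an interferon-induced nuclear member, was 75.1, 83.1 and 64.4 FPKM in WT and 17.7, 17.7 and 14.6 FPKM in KO, with a log2 fold change of -2.12 (95% interval from -2.42 to -1.82, adjusted p = 4.62e-05 from limma). *Slfn8* was 47.7, 41.4 and 38.3 FPKM in WT and 6.92, 6.89 and 5.35 FPKM in KO, with a log2 fold change of -2.64 (95% interval from -2.96 to -2.33, adjusted p = 2.14e-05 from limma). In both genes the WT libraries stood well clear of the KO libraries. *Slfn5* overlaps the antisense gene *Slfn5os*, which was at 0.102 to 0.553 FPKM in WT and at most 0.111 FPKM in KO. Strand use in the counting is not given in the sources used here, so reads of this pair cannot be told apart.

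*Slfn9* was 6.08, 6.27 and 3.02 FPKM in WT and 3.34, 3.06 and 2.80 FPKM in KO. Its WT replicate 3 fell between the KO values, and its log2 fold change of -0.60 (95% interval from -1.21 to 0.01) did not pass (adjusted p = 0.11 from limma). Without WT replicate 3 the log2 fold change was -0.91 and the adjusted p-value from limma 0.00125. With median-of-ratios scaling the adjusted p-value was 0.0441. The pseudogene *Slfn10-ps*, which lies between *Slfn8* and *Slfn2* and holds 8.10% of the 50-base stretches of *Slfn9* and 10.1% of those of *Slfn8*, also had WT replicate 3 within the KO range, with 5.57, 5.89 and 1.71 FPKM in WT and 2.26, 3.01 and 1.47 FPKM in KO (log2 fold change -0.72, adjusted p = 0.236 from limma). Without WT replicate 3 it was lower (-1.22, adjusted p = 0.00975 from limma), and so it was without replicate 3 of both groups (-1.0, adjusted p = 0.00571 from limma). The other genes with the family name were near 0, *Slfn14* at 0.0153 FPKM in KO replicate 1 and listed at 0 elsewhere, and *Slfnl1*, on chromosome 4, at 0.118 FPKM in WT replicate 1 and listed at 0 elsewhere.

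**Figure D2:**
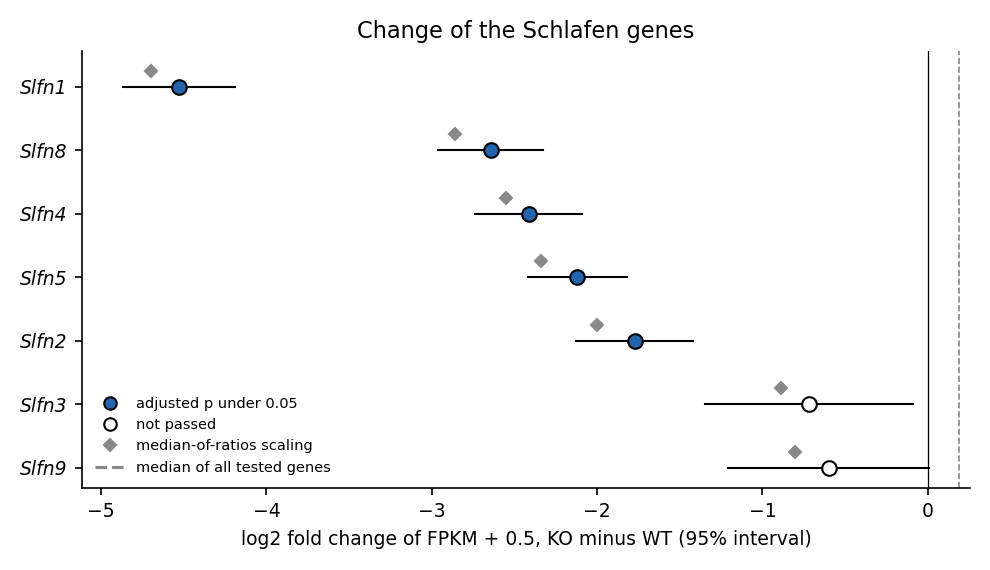
Log2 fold change of FPKM + 0.5 (KO minus WT) of each Schlafen gene with its 95% interval, filled where the adjusted p-value was under 0.05, with grey diamonds for median-of-ratios scaling and a dashed line at 0.19, the median of all tested genes. The changes run from -4.53 in *Slfn1* to -0.60 in *Slfn9*, and the interval of *Slfn9* reaches 0.01.

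Replicate 3 moved the members in both directions within a group. On the log2 scale, WT replicate 3 differed from the mean of WT replicates 1 and 2 by 0.44 for *Slfn2*, 0.22 for *Slfn1* and 0.09 for *Slfn4*. The difference was -0.92 for *Slfn9*, -0.79 for *Slfn3*, -0.29 for *Slfn5* and -0.21 for *Slfn8*, and -1.50 for *Slfn10-ps*. In KO replicate 3 the sign was the same for each of these genes, with 0.28 for *Slfn2*, -0.51 for *Slfn3* and -0.17 for *Slfn9*. Across all tested genes the median shift of WT replicate 3 was 0.23 for 4131 genes whose longest transcript is under 2 kb and -0.26 for 4325 genes of 4 kb or more, and in KO replicate 3 it was 0.08 and -0.12. *Slfn1* and *Slfn2* belong to the short class, *Slfn5*, *Slfn8* and *Slfn9* to the long one, and *Slfn3* and *Slfn4* lie between. The part of transcript length in the spread of these members was not tested. Without replicate 3 of both groups, an alternative added after the data were seen, all 7 members passed as lower in limma, and so they did without WT replicate 3 alone.

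The order of levels changed between the groups. In WT it was *Slfn2*, *Slfn5*, *Slfn8*, *Slfn1*, *Slfn9*, *Slfn4* and *Slfn3* by mean FPKM, and only *Slfn9* and *Slfn4* had overlapping libraries among neighbours in that order. In KO it was *Slfn2*, *Slfn5*, *Slfn8*, *Slfn9*, *Slfn3*, *Slfn1* and *Slfn4*, where only *Slfn1* and *Slfn4* overlapped. *Slfn1* went from 5.81% ± 0.152 to 0.557% ± 0.151 of the family's summed FPKM (SD, n = 3 each), and *Slfn9* from 1.23% ± 0.509 to 2.85% ± 0.374.

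Near-identical neighbours can be set against each other within a library, where the scaling of the library drops out of the plain FPKM ratio. The level of *Slfn8* was 7.84, 6.6 and 12.7 times that of *Slfn9* in WT and 2.07, 2.25 and 1.91 times in KO. *Slfn4* was above *Slfn3* in each WT library, by up to 2.93 times, and at 0.171, 0.261 and 0.547 times its level in KO, so that the order of this pair turned over in all 3 KO libraries. The short pair differed as well, with *Slfn1* at 0.0825 to 0.0976 times the level of *Slfn2* in WT and 0.00581 to 0.01 times in KO. On the log2(FPKM + 0.5) scale the ratio changed by -2.04 for *Slfn8* to *Slfn9*, by -1.69 for *Slfn4* to *Slfn3*, by -2.76 for *Slfn1* to *Slfn2* and by 0.53 for *Slfn5* to *Slfn8*. With the added 0.5 the scaling does not drop out fully. The changes of *Slfn4* to *Slfn3* and of *Slfn1* to *Slfn2* come out too small there, as their KO levels are low. These 4 pairs were picked after the values were seen. They are therefore given as a description with no test, and an exact permutation test of 3 libraries against 3 could not go below 0.1. In each pair the WT and KO libraries did not overlap.

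**Figure D3:**
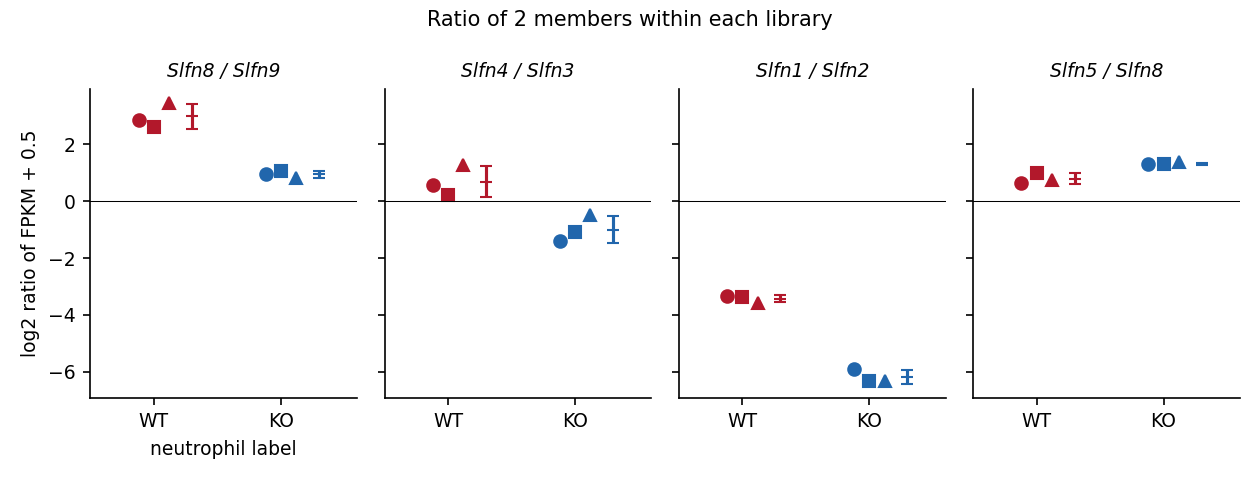
Log2 ratio of FPKM + 0.5 between 2 Schlafen genes in each library, WT in red and KO in blue, with the mean and SD of 3 libraries beside the points. The ratio of *Slfn8* to *Slfn9* drops from a mean of 2.99 to 0.94, that of *Slfn4* to *Slfn3* from 0.69 to -1.0 and that of *Slfn1* to *Slfn2* from -3.43 to -6.19, while that of *Slfn5* to *Slfn8* rises from 0.80 to 1.32.

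Genes around the family went in both directions or did not pass. Within 500 kb on either side of the members, 20 other genes were tested, of which 5 were lower, 1 was higher and 14 did not pass. Among all tested genes 10.5% were lower and 27.1% were higher. The median log2 fold change of the 20 was -0.25 against 0.19 for all tested genes. The genes next to the cluster on its *Slfn5* side included *Nle1*, a ribosome assembly factor, whose log2 fold change was -0.16 (limma, adjusted p = 0.404), and *Rad51d*, a DNA repair gene, which was higher in KO with 0.80 (adjusted p = 0.00567 from limma). On the other side *Ap2b1*, an adaptor of clathrin coats, had 0.09 (adjusted p = 0.521 from limma), or -0.13 with median-of-ratios scaling. Under that scaling 8 of the 20 were lower. The 5 that were lower were *Rffl*, a ubiquitin ligase gene (-0.51), the noncoding *AI662270* next to *Slfn3* (-2.28), and the chemokine genes *Ccl5* (-5.49), *Ccl9* (-1.22) and *Ccl6* (-1.40). *AI662270* was 12.3, 8.31 and 39.8 FPKM in WT and 2.77, 1.66 and 5.15 FPKM in KO, with replicate 3 the highest of either group, and *Ccl5* was 62.0, 65.5 and 82.7 FPKM in WT and 0.577, 1.33 and 1.41 FPKM in KO. *Slfn14*, at the *Slfn3* end of the family, was under the filter.

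**Figure D4:**
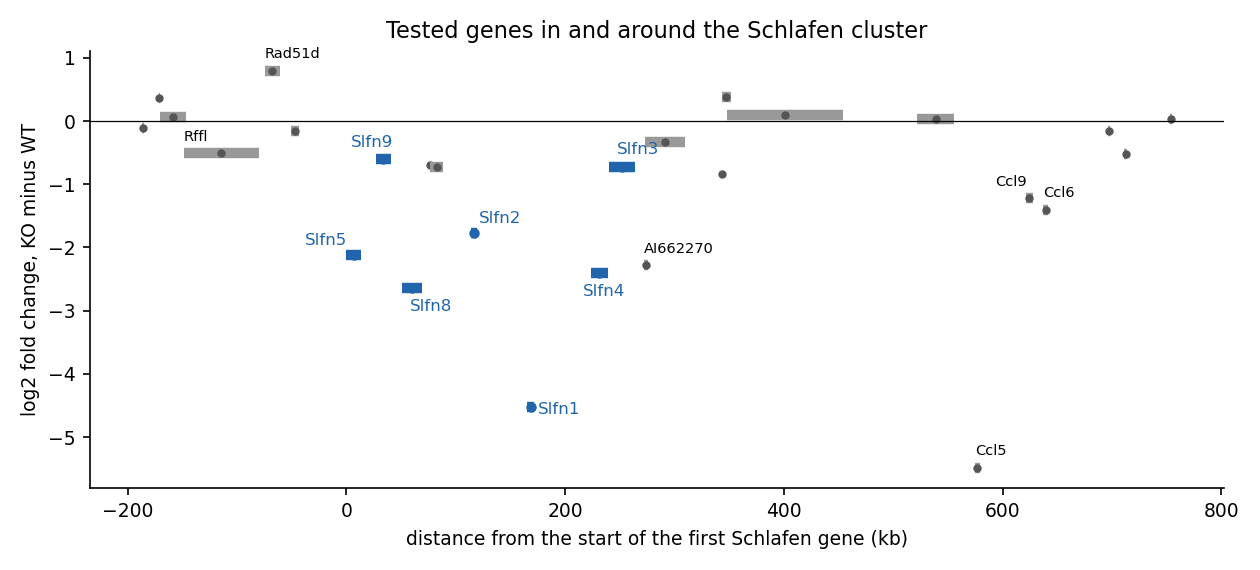
Log2 fold change (KO minus WT) of the tested genes by distance from the start of the first Schlafen gene in kb, with Schlafen genes in blue, other genes in grey and bars as long as the gene. The 7 Schlafen genes all lie below 0, between -4.53 and -0.60, with *Nle1* and *Ap2b1* near 0 on the 2 sides and *Ccl5* at -5.49 beyond.

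The Schlafen genes are commonly counted among interferon-stimulated genes, so other genes of that response were set beside them. They and the lists that follow came from general knowledge, but with earlier results of these data known. Their counts are thus a description only. All 33 of 33 listed interferon-stimulated effectors were lower in KO (32 without KO replicate 1 or KO replicate 2), beside 10.5% of all tested genes. Of the effectors, *Mx2*, *Ifi44*, *Gbp5* and *Iigp1* passed the filter on low values only through the WT libraries and had to differ to be tested. The median log2 fold change of the 33 effectors was -3.17, beside -2.12 for the 7 Schlafen genes and 0.19 for all tested genes. The effectors ran from -5.75 (*Rsad2*) to -0.57 (*Ifi27l2a*), and the Schlafen genes from -4.53 to -0.60, so the family covered most of that range. Among the most abundant effectors, *Ifitm3*, which blocks the entry of viruses, went from 618 ± 102 to 209 ± 8.47 FPKM, and *Bst2*, which tethers budding virus, from 425 ± 77.5 to 114 ± 5.41 FPKM (SD, n = 3 each). Their log2 fold changes of -1.55 and -1.88 lie on either side of that of *Slfn2*. *Isg15*, a ubiquitin-like modifier, had -5.38 and *Gbp2*, a guanylate-binding protein gene, -4.75, both lower than *Slfn1*.

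Of 13 genes of interferon signalling and its transcription factors, 8 were lower, 1 was higher and 4 did not pass, beside 10.5% lower and 27.1% higher among all tested genes, and the median log2 fold change was -0.57. The count of lower genes was 7 with TPM and when any 1 library other than WT replicate 3 was left out, and 9 without WT replicate 3 and with median-of-ratios scaling. *Stat2* (-2.67) and *Irf9* (-0.33, adjusted p = 0.0273 from limma), whose products take part in binding the response element and which were picked for that after their values were seen, were lower. The kinase gene *Jak1* was the 1 that was higher (0.45), and it did not pass with median-of-ratios or upper-quartile scaling. Of 8 ligand and receptor genes 4 were tested. The type I receptor genes *Ifnar1* and *Ifnar2* had log2 fold changes of -0.11 and 0.09, or -0.33 and -0.14 with median-of-ratios scaling, and passed under neither. *Ifngr2* (-0.15) did not pass with FPKM as deposited but was lower with median-of-ratios scaling (-0.37, adjusted p = 0.0149 from limma). *Ifngr1*, for the interferon gamma receptor, was higher in KO (1.98, adjusted p = 0.000191 from limma). *Ifnb1*, *Ifna4* and *Ifng* were listed at 0 in all libraries but WT replicate 3, where they were at 0.074, 0.0847 and 0.105 FPKM, and *Ifna2* was listed at 0 throughout.

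Schlafen proteins act on RNA and translation, and 10 other interferon-linked genes with such roles were compared. In KO 8 of them were lower and 1 was higher, beside 10.5% lower and 27.1% higher among all tested genes. The median log2 fold change of the 10 was -1.37. *Trim25*, the most abundant, was at -1.20, and the ADP-ribosyltransferase genes *Parp14* and *Parp12* were at -2.58 and -1.99. *Apobec3*, a cytidine deaminase gene, did not pass (-0.21, adjusted p = 0.196 from limma), but with median-of-ratios scaling it was lower as well (-0.40, adjusted p = 0.0406 from limma), which made 9 of 10.

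Since *Slfn1* and *Slfn2* are known for restraint of cell division, 24 genes of quiescence and the cell cycle were compared as well. In KO 12 were higher, 1 was lower and 11 did not pass, with a median log2 fold change of 0.44, or 0.22 with median-of-ratios scaling, beside 27.1% higher among all tested genes. Under that scaling 9 were higher and 2 were lower. The list mixes genes that drive division with genes that restrain it, so its count and median have no single direction. *Ccnd1*, the G1 cyclin induced by growth factors, was 32.7, 32.3 and 27.3 FPKM in WT and 61.4, 61.5 and 57.2 FPKM in KO (log2 fold change 0.96, adjusted p = 0.000454 from limma). The 1 lower gene was *Btg1*, which restrains proliferation, with a mean of 69.1 FPKM in WT and 31.8 FPKM in KO. Other genes linked to restraint or quiescence went the other way, with *Foxo3* (1.25), *Klf2* (0.56) and *Cdkn1b* (0.43) higher in KO. Of these, *Klf2* and *Cdkn1b* did not pass with median-of-ratios scaling. The most abundant cell-cycle inhibitor, *Cdkn1a*, did not pass (-0.21, adjusted p = 0.068 from limma), but it was the second lower gene with median-of-ratios scaling (-0.44, adjusted p = 0.00794 from limma). *Cdk4* did not pass under either scaling, and its value went from 0.17 to -0.06. Any relation of these genes to the Schlafen genes was not tested.

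**Figure D5:**
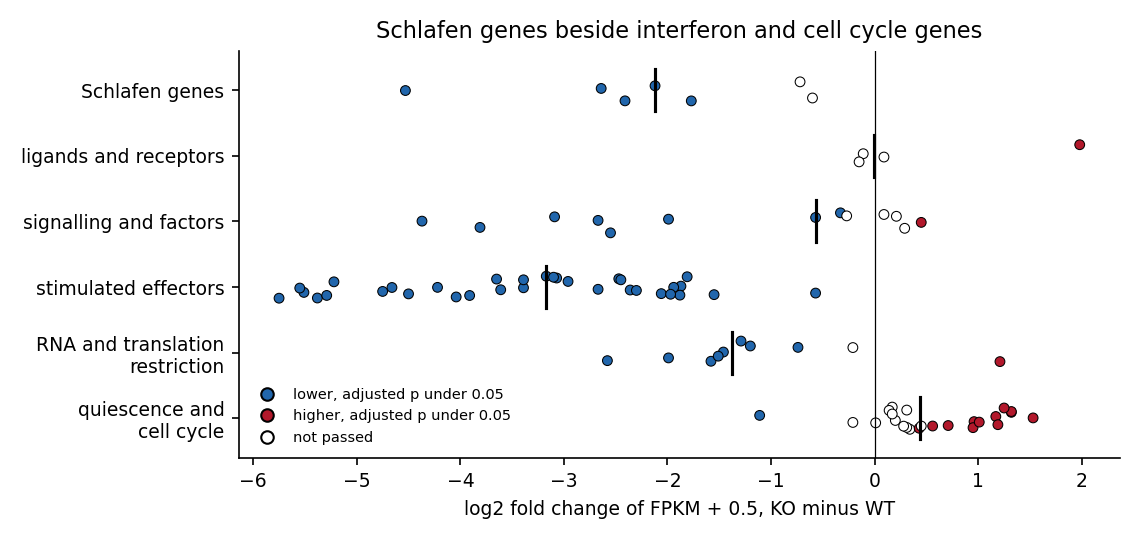
Log2 fold change (KO minus WT) of each tested gene in the Schlafen family and in the lists set beside it, coloured where the adjusted p-value was under 0.05, with a bar at each list's median and a line at 0. The medians are -2.12 for the Schlafen genes, -3.17 for the effectors, -1.37 for the RNA and translation genes and 0.44 for quiescence and cell cycle.

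The scale of the libraries touches every direction given. Among the genes past the threshold 72.0% were higher in KO when FPKM were used as they were deposited. Median-of-ratios scaling gave 47.7%, upper-quartile scaling 59.3% and quantile normalization 56.3%, and the median log2 fold change of all tested genes went from 0.19 to -0.01 with median-of-ratios scaling. The log2 fold changes of the 7 Schlafen genes were between -4.70 (*Slfn1*) and -0.80 (*Slfn9*) under that scaling, where all 7 passed. The 5 genes with the profile most like *Slfn2*, the most abundant member, over the 6 libraries were *Gm36161*, *Pnp*, *H2-T23*, *Creld2* and *Hsp90b1*, with Pearson r between 0.9992 and 0.9998. This is a description, as these points share the libraries and the difference between groups. *Pnp*, which encodes a purine nucleoside phosphorylase, was 97.3, 95.3 and 132 FPKM in WT and 26.2, 25.0 and 30.2 FPKM in KO, with replicate 3 the highest of either group, as for *Slfn2*.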

How the data were processed

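RNA-seq of sorted macrophages was deposited by the authors as 1 table of FPKM for 55335 gene identifiers in 6 libraries, without counts. Per the submitters' processing notes, fastp 0.17.1, HISAT2 2.1.0, DESeq2 1.18.1 and R 3.4.3 were used. The counter, genome build and annotation are not given in the sources used here, and 99.7% of identifiers matched GENCODE M21. The FPKM steps gave an implied depth, but only 37.3% to 40.5% of low values came within 0.1 of whole fragments (20% by chance), so reads were not recovered and no count test was run.

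Genes averaging 0.5 FPKM or more were fitted as log2(FPKM + 0.5) with limma 3.58.1 (trended eBayes, two-sided, Benjamini-Hochberg) without covariates, tested on simulated data first. Ratios within pairs of members were described without a test. Alternatives were the pseudocount, filter, scaling, threshold, robust eBayes, replicate block and left-out libraries. Promoters came from RefSeq (GRCm38.p6), coding sequences from GENCODE M21. The genes named were the members, genes within 500 kb, the most abundant genes of each list, those falling outside a list's direction or setting its range, and the 5 genes most like the most abundant member. The members and lists were chosen with earlier results of these data known. Some genes of the lists are not reported here by name.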

Additional observations from a re-analysis of the deposited data

How the results depend on the processing

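The 5 Schlafen genes that passed (*Slfn1*, *Slfn2*, *Slfn4*, *Slfn5* and *Slfn8*) were lower in KO and passed in every alternative run in which they were tested (18, or 17 for *Slfn4*), with log2 fold changes from -5.18 to -4.02 for *Slfn1*, -2.0 to -1.63 for *Slfn2*, -3.21 to -1.89 for *Slfn4*, -2.34 to -2.03 for *Slfn5* and -2.86 to -2.53 for *Slfn8*. *Slfn3* stayed between -0.99 and -0.55 (adjusted p between 0.00723 and 0.193 from limma, passing in 5 of 17) and *Slfn9* between -0.91 and -0.44 (0.00125 to 0.273, passing in 4 of 17). Both passed with median-of-ratios scaling, quantile normalization, without WT replicate 3 and without replicate 3 of both groups, and the cause was not tested. Leaving out 1 library at a time gave 5 to 7 members lower and 3489 to 5945 of all tested genes changed, beside 5027 with all libraries. A mean of at least 5 FPKM, which tests fewer genes, gave 2739 changed genes, 757 at the study's threshold applied to limma instead of 1485, and 4 of 4 tested members. An adjusted p under 0.01 gave 2929. Samples of the same replicate number had residual correlations of 0.116, 0.036 and 0.264, and not every sample correlated best with its own number, so the numbers were not taken as pairs. With the replicate block 6 members were lower (*Slfn3* at adjusted p = 0.0126 and *Slfn9* at 0.051 from limma, with *Slfn10-ps* lower at 0.0423), and 5934 genes changed in all. No Schlafen gene changed sign in any of these alternatives, whereas *Ifnar2*, *Ap2b1* and *Cdk4*, none of which passed, turned from 0.09, 0.09 and 0.17 to -0.14, -0.13 and -0.06 with median-of-ratios scaling, as the median of all tested genes went from 0.19 to -0.01. With 16 to 33 implied fragments in KO, *Slfn1* and *Slfn4* are the members that depth limits most.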
